A study of Drosophila melanogaster with 48 samples.

Results

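The RNA exosome is a complex that trims and degrades RNA from its 3′ end. Rrp40 is one of the RNA-binding subunits that cap its core, and Rrp6 is a nuclear exonuclease that joins that core. In Drosophila the complex is known to associate with elongating RNA polymerase II, so its subunits can be crosslinked to chromatin and mapped by ChIP-seq. Su(Hw) is a zinc finger protein that binds DNA at insulators such as the one in the gypsy element. A peak here is an interval of the genome that the submitters called as bound.

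Chromatin of S2 and S3 cells, established lines from late Drosophila embryos, was fixed with 1% formaldehyde for 10 min and precipitated with rabbit antibodies to Rrp6 or Rrp40 or a guinea pig antibody to Su(Hw), and no dsRNA treatment is given for these samples. Each line has 2 technical replicates for Rrp6, 2 for Rrp40 and 2 for the input, and 1 sample for Su(Hw). The study as a whole holds 48 samples, of which 34 are RNA libraries that are not used here. Each antibody has 1 deposited peak list per line, so there is no spread between replicates and no difference below was tested. Read depth and peak height are unknown, since the lists hold positions alone.

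The shared exosome peaks are the peaks of the Rrp6 list of S2 cells that overlap a peak in each of the Rrp40 S2, Rrp6 S3 and Rrp40 S3 lists by at least 1 bp. They were chosen by the 4 exosome lists, so their presence in those lists is a description and not a result. They number 1831 of 3282 Rrp6 S2 peaks, or 55.8% (95% Wilson interval 54.1 to 57.5%, counting error only). The 4 lists hold 3282 (Rrp6 S2), 3750 (Rrp40 S2), 2746 (Rrp6 S3) and 2831 (Rrp40 S3) peaks. Counted on the other lists, 1809 Rrp40 S2 peaks (48.2%), 1797 Rrp6 S3 peaks (65.4%) and 1829 Rrp40 S3 peaks (64.6%) met the 3 remaining lists. The remaining 1451 Rrp6 S2 peaks are called the other Rrp6 peaks. Of these, 346 met Rrp40 in S2 and neither list of S3, and 470 met no other exosome list.

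The shared peaks lay almost on top of each other in the 4 lists. The Rrp40 peak of S2 covered a median of 100% of a shared peak, the Rrp6 peak of S3 99.7% and the Rrp40 peak of S3 97.6%. Midpoints differed from that of the Rrp6 S2 peak by a median of 93.0 bp for Rrp40 S2, 117.5 bp for Rrp6 S3 and 71.0 bp for Rrp40 S3. The offset was thus smallest for the Rrp40 list of the other line, whose partner peaks were also the narrowest. Their median width was 2083 bp, against 2481 bp in Rrp40 S2 and 2368 bp in Rrp6 S3. The part of width in the offsets was not tested. Midpoints within 250 bp were found for 76.5% of shared peaks in Rrp40 S2, 70.8% in Rrp6 S3 and 81.3% in Rrp40 S3. A stretch common to all 4 lists existed at 1827 shared peaks, with a median length of 2003 bp, and at 4 the lists met the Rrp6 S2 peak at different places. The partners were nearly as many as the shared peaks: 1792 distinct Rrp40 S2, 1785 Rrp6 S3 and 1815 Rrp40 S3 peaks.

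Few shared peaks sat near the limit of 1 bp. The smallest overlap of a shared peak with any list was under 500 bp for 45 of them and under 100 bp for 5. The 45 include the 17 shared peaks of 300 bp, whose overlap cannot exceed their width even where they were covered whole. On the dm3 build, chr3L:5805299-5807296 met Rrp6 S3 by 16 bp, chr3L:1516022-1516321 met Rrp40 S3 by 32 bp, and chr2R:18495040-18496712 met Rrp6 S3 by 47 bp. Just outside, chrX:16168964-16171203 missed Rrp40 S3 by 19 bp, chr3L:19285182-19286507 missed Rrp40 S3 by 29 bp, and chr2L:13020303-13022300 missed Rrp6 S3 by 42 bp, each while meeting the remaining lists. Of the 525 Rrp6 S2 peaks that met all but 1 of the other lists, 71 missed it by 1 kb or less.

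Shared peaks were broad, and broader than the Rrp6 peaks that were not shared. Their median width was 2088 bp, with quartiles of 1999 and 2390 bp and a range of 300 to 6671 bp. The other Rrp6 peaks had a median of 1908 bp, and those that met no other exosome list one of 1305 bp. Widths fell into 2 classes in every list: either 1 fixed short width or 1000 bp and more. In the Rrp6 S2 list the short width was 300 bp, and it was held by 17 shared peaks (0.928%) and by 209 of the other Rrp6 peaks (14.4%). Around the mode, 747 shared peaks (40.8%) and 459 of the other Rrp6 peaks (31.6%) were 1900 to 2100 bp wide. Over 3000 bp were 183 shared peaks (9.99%) and 36 of the other Rrp6 peaks (2.48%). Width is not independent of the rule, since a wider interval has more room to meet another, so these values describe the classes only.

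**Figure D1:**
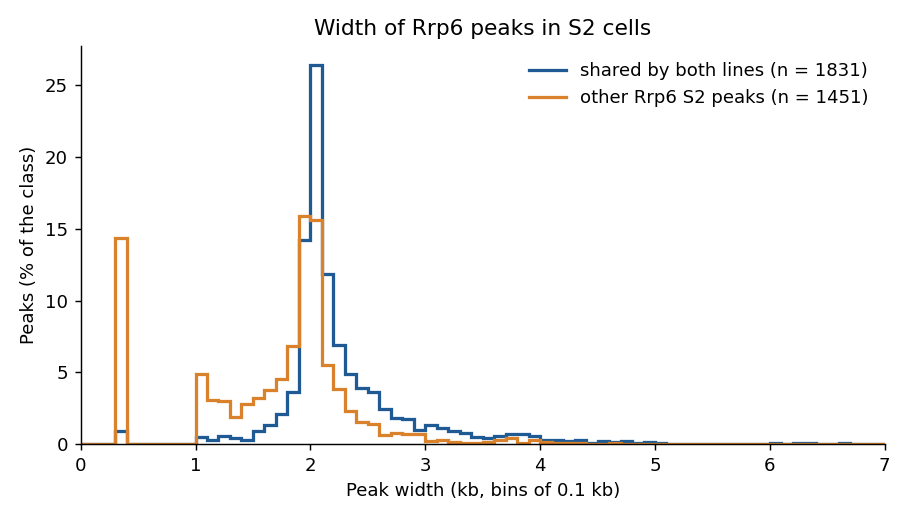
Width of Rrp6 peaks of S2 cells in kb against the percent of peaks per 0.1 kb bin, for the 1831 shared peaks and the 1451 other Rrp6 peaks. Both classes peak near 2 kb, no peak lies between 300 and 1000 bp, and the short class is mainly made of peaks that are not shared; 2 of the other peaks over 7 kb are beyond the axis.

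The widest shared peak, chrX:7824406-7831076, spanned 6671 bp and was matched over 6647 bp by Rrp40 S2, 3273 bp by Rrp6 S3 and 6613 bp by Rrp40 S3. It also overlapped a Su(Hw) peak of S2 by 1333 bp and none of S3. The next, chr3R:25682246-25688577, measured 6332 bp and was covered over at least 6320 bp by a peak of each exosome list, without Su(Hw) in either line. On chrX:19586041-19592275, 6235 bp wide, the best partners overlapped by 2535 bp in Rrp40 S2, 2240 bp in Rrp6 S3 and 2253 bp in Rrp40 S3. At the second of these peaks a single interval of each other exosome list thus covered nearly all of it, while at the third each partner covered less. How far the partners reached beyond the shared peak was not measured. The 17 narrowest shared peaks tie at 300 bp. The first of them by position, chr2L:2739844-2740143, chr2L:8126827-8127126 and chr2L:19795702-19796001, were covered whole by a peak of each exosome list and met no Su(Hw) peak.

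The spacing of shared peaks was uneven. The gap from one shared peak to the next had a median of 21.9 kb, quartiles of 6.68 and 71.1 kb, and a mean of 61.9 kb. It was at most 1 kb in 88 cases (4.83%), at most 5 kb in 369 (20.2%) and at most 100 kb in 1463 (80.3%). The median gap was 13.7 kb among all 3282 Rrp6 S2 peaks and 43.2 kb among the 1451 other Rrp6 peaks. The part of the unequal number of peaks in these differences was not tested. The widest gaps were 773.9 kb on chr2R:717574-1491427, 648.4 kb on chr2L:14356197-15004642 and 622.7 kb on chrX:11924053-12546774. These stretches were not empty of peaks. The gap on 2R held 6 Rrp6 and 10 Rrp40 peaks of S2, and the gap on X held 8 Su(Hw) peaks of S2 and 10 of S3.

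**Figure D2:**
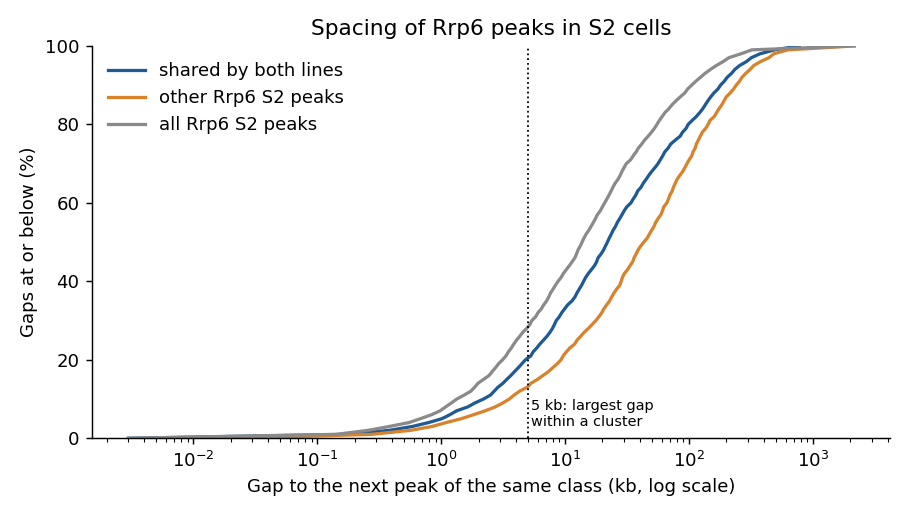
Percent of gaps at or below a length in kb (log scale) for shared peaks, the other Rrp6 peaks of S2 and all Rrp6 peaks of S2. The curve of shared peaks (median 21.9 kb) runs between those of all peaks (13.7 kb) and of the other peaks (43.2 kb); the dotted line marks the 5 kb limit used for clusters.

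A cluster is a run of shared peaks with gaps of up to 5 kb. Clusters held 657 of the 1831 shared peaks (35.9%), in 288 runs, of which 224 were pairs, 50 were triples and 14 had 4 or 5 members. The same limit put 46.7% of all Rrp6 S2 peaks and 23.8% of the other Rrp6 peaks in clusters of their own class, and these classes are of unequal size. Clusters were short, with a median span of 7.36 kb and a longest of 22.9 kb. The share depends on the limit, at 17.9% with gaps up to 2 kb and 54.8% with gaps up to 10 kb. Shared peaks also neighboured each other along the Rrp6 S2 list. The next Rrp6 peak was itself shared for 61.8% of neighbours of shared peaks and for 48.5% of neighbours of the other peaks. Within 5 kb these shares were 65.7% and 50.8%, and beyond 50 kb they were 49.6% and 46.1%. Of all Rrp6 S2 peaks, 55.8% were shared. Membership is set by the rule, and 1 long interval of another list can make 2 neighbours shared. The shared part also differed between arms, as given below. These shares are thus a description, and the part of either in them was not tested.

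Of the clusters with 5 shared peaks, the most compact was chr2R:9840587-9856750, 16.2 kb long. It held 5 peaks in each exosome list and 3 Su(Hw) peaks in each line, and 3 of its shared peaks overlapped Su(Hw) in S2 and 3 in S3. The cluster chr3L:16566527-16584609, 18.1 kb long, held 5 Rrp6 peaks in S2 but 4 in each of the other exosome lists, where 1 long interval met both the second and the third of them. It had 1 Su(Hw) peak in S2 and 0 in S3. At chr3R:25864372-25884838, 20.5 kb long, 2 of the 5 shared peaks overlapped Su(Hw) in S2 and 0 in S3. Of the clusters with 4 shared peaks, the shortest were chr2L:9887679-9898715 (11.04 kb), where 1 overlapped Su(Hw) in S2, and chr3R:5329387-5342802 (13.4 kb), with no Su(Hw) peak of either line. Only the cluster on 2R had Su(Hw) of S3 at its shared peaks among these 5.

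**Figure D3:**
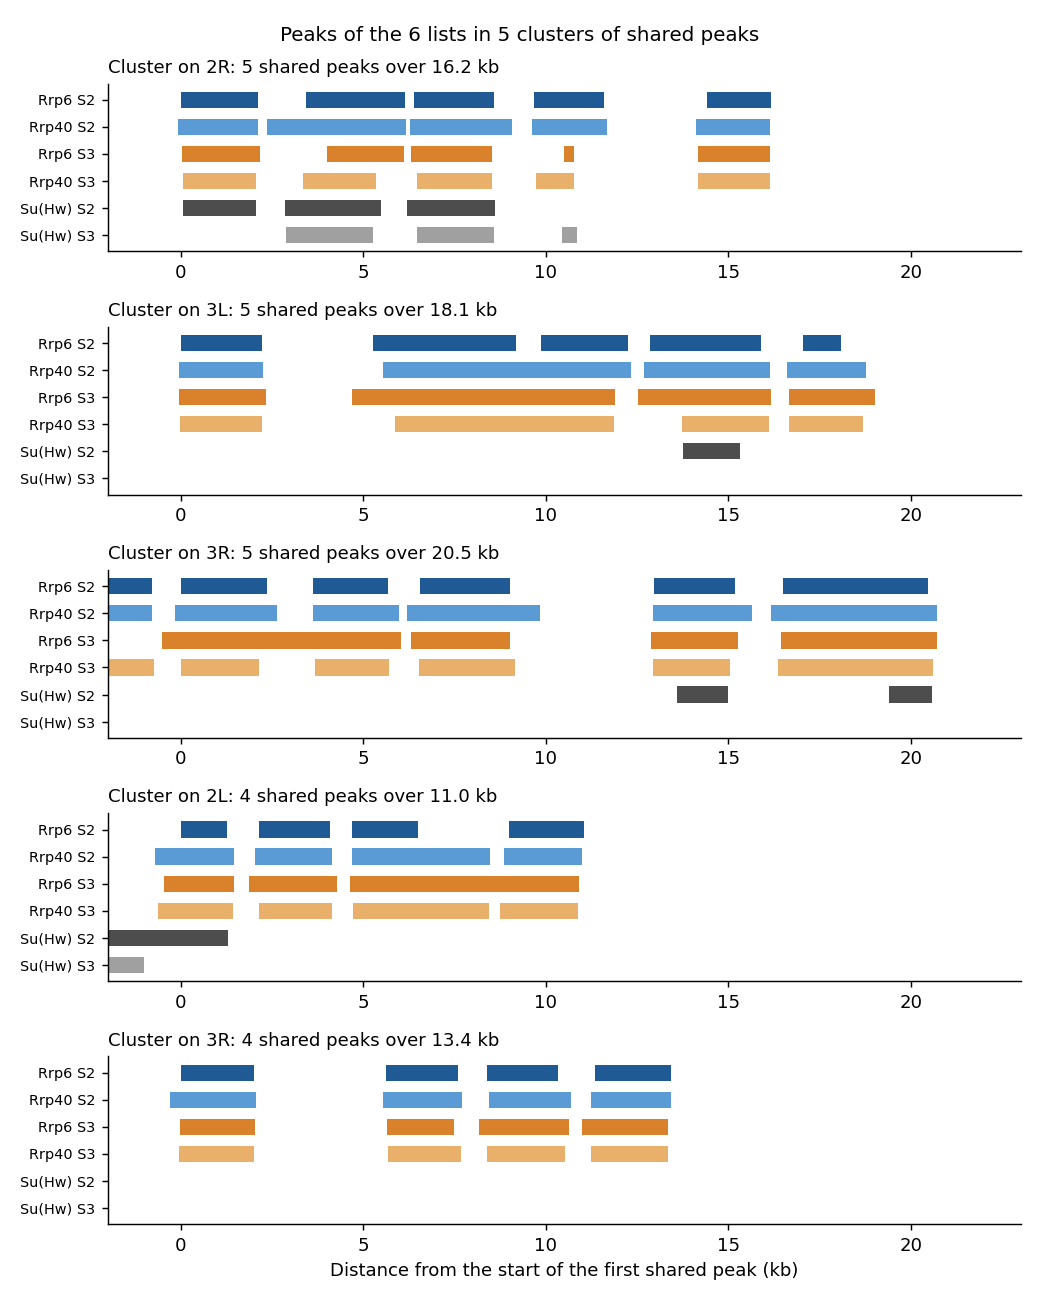
Peaks of the 6 lists, drawn to scale, in the 5 clusters of shared peaks named in the text, against the distance in kb from the first shared peak; each bar is 1 peak. The 4 exosome rows overlap at each shared peak, as the rule requires. On 3L, 1 long interval in each of the other exosome lists meets neighbouring Rrp6 S2 peaks, as does 1 of Rrp6 S3 on 2L. Su(Hw) bars of S3 meet shared peaks in the cluster on 2R alone.

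The shared peaks were on the major chromosome arms. 3R held 456 (24.9%), 2R 428 (23.4%), 3L 377 (20.6%), 2L 348 (19.0%), X 215 (11.7%) and chromosome 4 held 5 (0.273%). The unplaced sequence U and the heterochromatic sequence 2RHet held 1 each. In the whole Rrp6 S2 list 75 peaks lay on such minor sequences and on the mitochondrial genome, and 2 of those were shared. The small chromosome 4 had 32 Rrp6 S2 peaks, of which 5 were shared (15.6%, Wilson 6.86 to 31.8%). The shared part of the Rrp6 S2 list was 67.6% on 3R (Wilson 63.9 to 71.0%), 62.0% on 2R (58.4 to 65.6%), 52.5% on 2L (48.7 to 56.3%), 51.6% on 3L (47.95 to 55.2%) and 51.7% on X (46.9 to 56.4%). On 3R this goes with a list that is thinner there: Rrp6 S2 has 20.6% of its peaks on 3R, against 25.2% in Rrp40 S2, 26.0% in Rrp6 S3 and 25.5% in Rrp40 S3. The part of that difference in the value for 3R was not tested.

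X held shared peaks at a lower density than the 4 large autosomal arms, while chromosome 4, an autosome with 5 shared peaks, was lower still. The 215 of X shared peaks are 11.7% of all (Wilson 10.3 to 13.3%), beside 12.7% of all Rrp6 S2 peaks, 14.6% of Rrp40 S2, 13.4% of Rrp6 S3 and 13.8% of Rrp40 S3 peaks. Of the Rrp6 S2 peaks, 51.7% were shared on X and 57.8% on autosomes. The same shares were 39.4 and 50.5% in Rrp40 S2, 59.0 and 66.5% in Rrp6 S3, and 55.1 and 66.4% in Rrp40 S3, so X was lower in 4 of 4 lists, which count mostly the same sites. Over the span from the first to the last peak of any list, X had 9.59 shared peaks per Mb, against 15.2 on 2L, 20.3 on 2R, 15.4 on 3L, 16.4 on 3R and 4.01 on chromosome 4. All Rrp6 S2 peaks were also sparser on X, at 18.6 per Mb against 24.2 to 32.7 on those arms. The median gap between shared peaks was 44.7 kb on X and 16.8 (2R) to 22.7 kb (3R) on the large autosomal arms, and the 4 gaps on chromosome 4 had a median of 130.8 kb. Clusters held 20.0% of shared peaks on X and 36.1 (3L) to 40.9% (2R) on those arms, and 0 of 5 on chromosome 4. The shared part of the Rrp6 S2 list did not set X apart from 3L (51.7 and 51.6%).

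**Figure D4:**
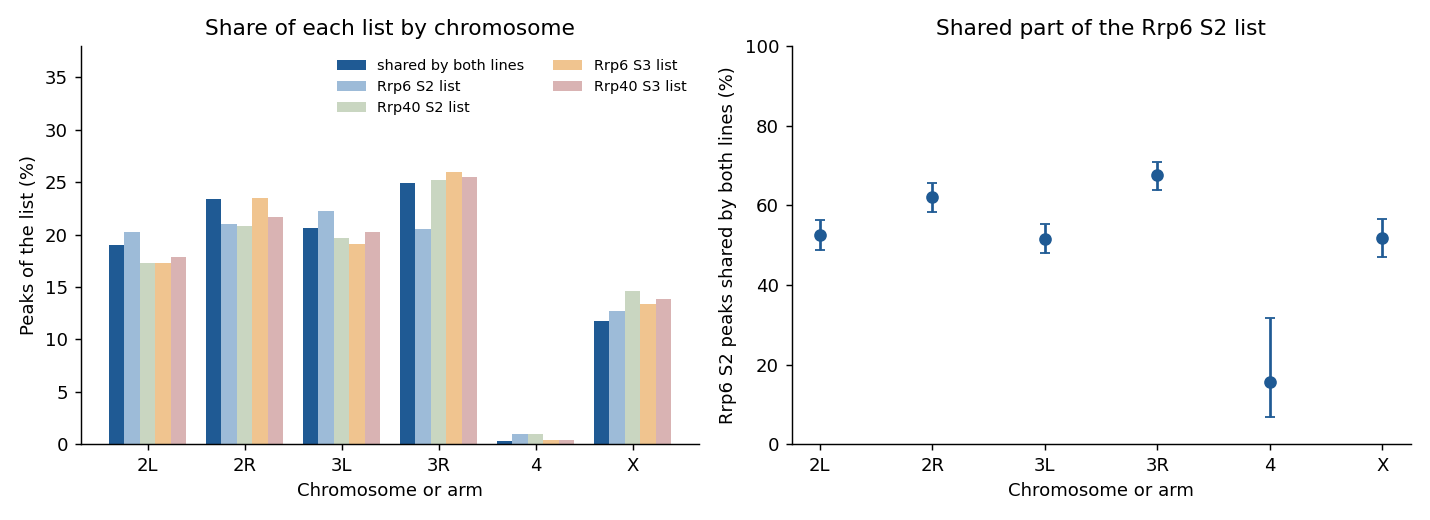
Left, percent of the peaks of each class or list on each chromosome or arm; right, percent of the Rrp6 S2 peaks of an arm that are shared, with 95% Wilson intervals. X holds 11.7% of the shared peaks, 3R has the highest shared part (67.6%) and chromosome 4 the lowest (15.6%).

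Along the arms, cut into 10 equal parts, the shared part was low next to some centromeres. It was 9 of 35 Rrp6 S2 peaks (25.7%) in the part of 2R nearest the centromere, 7 of 26 (26.9%) in that of 3L and 23 of 57 (40.4%) in that of 2L. In the corresponding part of 3R it was 50 of 71 (70.4%), and on X 11 of 23 (47.8%). The centromere-proximal part was therefore the lowest on 2L, 2R and 3L and not on 3R or X. On X the highest part was the sixth, with 26 of 34 peaks shared (76.5%).

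Most shared peaks had no Su(Hw), as did most Rrp6 S2 peaks, and those that had it had it mainly in the Su(Hw) list of S2 cells. Su(Hw) peaks of S2 overlapped 387 shared peaks (21.1%, Wilson 19.3 to 23.1%), beside 19.3% of all Rrp6 S2 peaks. Su(Hw) peaks of S3 overlapped 123 (6.72%, Wilson 5.66 to 7.96%), beside 9.29% of all Rrp6 S2 peaks, although the Su(Hw) list of S3 is the longer, with 2598 peaks against 2084. Both lines had Su(Hw) at 80 shared peaks (4.37%), beside 7.04% of all Rrp6 S2 peaks. S2 alone had it at 307 (16.8%), beside 12.3% of all Rrp6 S2 peaks, and S3 alone at 43 (2.35%), beside 2.25%. Neither had it at 1401 (76.5%), beside 78.4%. In S2 the share lies near that of the whole list.

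The other Rrp6 peaks differed from the shared ones in opposite directions in the 2 lines. Su(Hw) of S2 overlapped 17.1% of them, below the 21.1% of shared peaks, and Su(Hw) of S3 overlapped 12.5%, above the 6.72% of shared peaks. The Rrp6 peaks met by Rrp40 in S2 and by neither S3 list had 20.8% with Su(Hw) of S2 and 13.6% with that of S3. Those that met no other exosome list had 17.0% and 16.8%. The 270 that met Rrp40 in both lines but not Rrp6 S3 had 11.1% and 5.56%, both below the shared peaks. The difference between the Su(Hw) lists was thus 14.4 points at the shared peaks and 0.213 points at Rrp6 peaks with no partner. Classes between these also had it. Among other peaks met by Rrp40 S2 it was 10.9 points with Rrp6 S3 also met, 5.56 with Rrp40 S3 also met and 7.23 with neither. Without Rrp40 S2 it was 1.09 points with Rrp6 S3 alone (92 peaks), 0 with both S3 lists (16) and -11.1 with Rrp40 S3 alone (18). Shared peaks were also the wider class, and the part of width in these differences was not tested. With the midpoint of the exosome peak inside a Su(Hw) peak, the shares were 18.6 against 14.9% in S2 and 4.86 against 10.5% in S3. Counted on the other exosome lists, peaks that met the 3 remaining lists had Su(Hw) of S2 in 21.5 to 22.2%, above the 6.99 to 12.7% of peaks that did not. For Su(Hw) of S3 the direction rested on smaller differences there. The shares were 7.57 against 9.12% in Rrp40 S2, 7.23 against 8.75% in Rrp6 S3 and 6.78 against 6.89% in Rrp40 S3, so the lower Su(Hw) of S3 at shared peaks was largest in the Rrp6 S2 list and nearly absent in the Rrp40 S3 list.

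Counted on the Su(Hw) lists, shared exosome peaks met mainly the Su(Hw) peaks called in S2 and not in S3. Each Su(Hw) list comes from 1 sample, and whether the peaks called in S2 alone are specific binding of Su(Hw) or enrichment at exosome sites without it cannot be told from the lists. Of the 587 Su(Hw) peaks of S2 that no Su(Hw) peak of S3 overlaps, 310 met a shared exosome peak (52.8%, Wilson 48.8 to 56.8%). Of the 1497 Su(Hw) peaks of S2 also present in S3, 82 did (5.48%, Wilson 4.43 to 6.75%). In the list of S3, 43 of the 1097 peaks absent from S2 met a shared peak (3.92%, Wilson 2.92 to 5.24%), as did 80 of the 1501 also present in S2 (5.33%, Wilson 4.30 to 6.58%). These intervals overlap. The share at S3 alone was 6.57% in the narrower and 1.28% in the wider part of those peaks, on either side of 5.33%. The peaks also present in S2 were not split by width, so the direction at like width is unknown. Su(Hw) peaks of S2 alone thus met shared exosome peaks more often than the other 3 classes of Su(Hw) peak. They met the exosome lists of both lines, although Su(Hw) was not called there in S3: 69.7% met Rrp6 S2, 73.1% Rrp40 S2, 61.7% Rrp6 S3 and 58.6% Rrp40 S3. The Su(Hw) peaks of S2 also present in S3 met these lists in 15.3, 15.2, 9.49 and 8.15%.

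**Figure D5:**
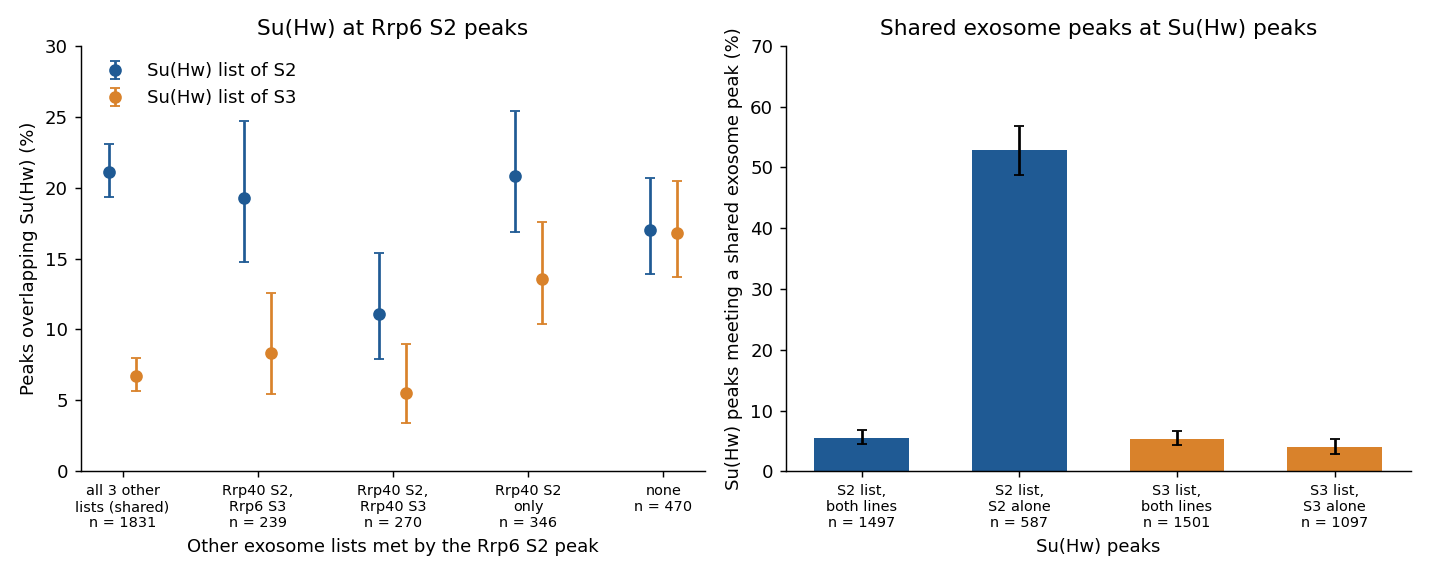
Left, percent of Rrp6 S2 peaks that overlap Su(Hw) of S2 or of S3, by the other exosome lists they meet; right, percent of Su(Hw) peaks that meet a shared exosome peak, by the line or lines that have the Su(Hw) peak; bars and points carry 95% Wilson intervals. Left, Su(Hw) of S2 and of S3 lie farthest apart at shared peaks (21.1 and 6.72%) among the 5 classes drawn; right, Su(Hw) peaks of S2 alone reach 52.8% and the other classes 3.92 to 5.48%.

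The Su(Hw) peaks of S2 alone were also narrower, with a median width of 1499 bp against 2287 bp for those of S2 also present in S3. The narrower part of them, split at the median, met a shared exosome peak in 61.1% and the wider part in 44.6%. In S3 the widths were 2056 bp for peaks absent from S2 and 2214 bp for those present in both. The fixed short width was 390 bp in the Su(Hw) list of S2, held by 161 peaks (7.73%). In that of S3 it was 420 bp, held by 57 peaks (2.19%). How many of these short peaks were called in 1 line alone was not counted. Their part in the shares, and in the offsets given below, was not tested. Peak height, depth and antibody performance of the single Su(Hw) sample per line are not in the lists, and their part in the contrast was not tested. Without Su(Hw) peaks of S2 that had one of S3 within 1 kb, the share at S2 alone was 53.3%. The contrast stood on each large arm and on X: of the Su(Hw) peaks of S2 alone, 55.4% met a shared peak on 2L, 61.2% on 2R, 57.8% on 3L, 54.9% on 3R and 33.9% on X. Of those of S2 also present in S3, the shares ran from 3.76% on X to 7.94% on 2R.

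Where Su(Hw) and a shared peak met, the centres were closest at sites with Su(Hw) in S2 alone, where the Su(Hw) peaks were also narrowest. Their median width was 1370 bp, against 1904 bp at sites with Su(Hw) in S3 alone and, at sites with both, 2499 bp in S2 and 2165 bp in S3. Overlapping intervals of smaller width can differ less in midpoint, so the offsets are a description. The midpoint of the Su(Hw) peak lay a median of 157 bp from that of the shared peak at these 307 sites, with quartiles of 47.5 and 332.5 bp. At the 80 sites with Su(Hw) in both lines the median offset was 421 bp for the Su(Hw) peak of S2 and 513 bp for that of S3. At the 43 sites with Su(Hw) in S3 alone it was 336 bp. An offset of up to 250 bp was found at 198 of the 307 (64.5%), and, for Su(Hw) of S2, at 29 of the 80 (36.3%). From the 307 shared peaks with Su(Hw) in S2 alone, the nearest Su(Hw) peak of S3 was a median of 21.3 kb away, and 85 (27.7%) had one within 10 kb. These values lie near those of shared peaks with Su(Hw) in neither line (22.0 kb and 24.5%). All Rrp6 S2 peaks, which unlike these sets include peaks overlapping Su(Hw) of S3, had 20.2 kb and 31.8%.

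The longest overlaps in both lines were at chr2R:20421279-20423968, 2690 bp wide, where Su(Hw) covered 2690 bp in S2 and 2514 bp in S3, and at chr3R:25144396-25146891, whose 2496 bp were covered whole in both. At chr2R:3419780-3422151, 2372 bp wide, Su(Hw) covered 2268 bp in S2 and 2372 bp in S3. A peak of each of the other exosome lists covered at least 1810 bp of each of these 3 shared peaks.

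Among the shared peaks, overlap with Su(Hw) of S2 was lower on X than on the large autosomal arms, and lowest in the narrowest peaks. These shares by arm and width were counted for shared peaks alone. Whether all Rrp6 S2 peaks vary in the same way was not tested. Among X and the large arms, the Su(Hw) list of S2 itself had fewest peaks on X, at 275 (13.2% of the list). It had 387 on 3L (18.6%), 398 on 2R (19.1%), 407 on 2L (19.5%) and 589 on 3R (28.3%). The shares by arm below follow the same order. The part of these counts in the shares was not tested. Su(Hw) of S2 was at 113 of 456 shared peaks on 3R (24.8%), 82 of 348 on 2L (23.6%) and 96 of 428 on 2R (22.4%). It was at 66 of 377 on 3L (17.5%, Wilson 14.0 to 21.7%), 28 of 215 on X (13.0%, Wilson 9.17 to 18.2%) and 0 of 5 on chromosome 4. The intervals of 3L and X overlap. Su(Hw) of S3 was at 4.19% of shared peaks on X and 5.84 to 8.41% on the large autosomal arms. Shared peaks of up to 1999 bp, the narrowest of 4 width classes, had Su(Hw) of S2 in 9.72%. The share was 20.8% at 2000 to 2088 bp, 29.1% at 2089 to 2389 bp and 25.1% at 2390 bp and more, so it did not rise throughout. Clustered and single shared peaks had Su(Hw) of S2 in 20.9 and 21.3%, and Su(Hw) of S3 in 5.02 and 7.67%. Shared peaks without Su(Hw) had a median width of 2067 bp, against 2170 bp with Su(Hw) in S2 alone, 2173 bp in S3 alone and 2148 bp in both.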

How the data were processed

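ChIP-seq peaks of Rrp6, Rrp40 and Su(Hw) in S2 and S3 cells were used as deposited. Per the submitters' processing notes, the tools were Bowtie 0.12.7 and Picard and the genome build was dm3. For the peak caller and its threshold, the sources used here give nothing. The authors' lists hold start and end positions and no score, and 1 list stands for both technical replicates of an antibody and line, per the labels. Read depth is therefore unknown. The 12 gene tables were not used: they carry no coordinates, and the gene annotation at hand is of another build, so peaks are given without genes or sequences.

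Overlaps, widths, gaps and clusters were computed in Python 3.11.15 (numpy 2.4.6, pandas 2.3.3). Positions are printed counting from 1. The number of shared peaks was checked against bedtools 2.31.1, and the code was tested on simulated data. Shares carry 95% Wilson intervals (scipy 1.17.1), which treat peaks as independent and cover counting error only. Regions named are the 3 widest, narrowest and closest to the overlap limit (3 on each side of it), the 3 with the longest Su(Hw) overlap in both lines, the 3 widest gaps and the 5 clusters with most members. The members and the overlaps described were chosen with earlier results of these data known. The split of Su(Hw) peaks by line was made after the overlaps had been seen.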

Additional observations from a re-analysis of the deposited data

Results flagged for a closer look

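Su(Hw) overlap differed between shared and other Rrp6 peaks by 4.04 percentage points in S2 (higher at shared peaks) and by -5.83 points in S3 (lower at shared peaks). Su(Hw) peaks of 1 line alone met shared peaks more often than those of both lines by 47.3 points in S2, and by -1.41 points, that is less often, in S3. Both pairs stand out because their directions are opposite in the 2 lines. With 1 list per line, neither difference between lines was tested. The direction of the -1.41 points is not firm: the intervals of its shares overlap (2.92 to 5.24% and 4.30 to 6.58%). The narrower part of the Su(Hw) peaks of S3 alone met shared peaks in 6.57%, above the 5.33% of those of both lines. The peaks of both lines were not split by width.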

How the results depend on the processing

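Of 72 values recomputed under alternatives, 54 stayed within 1.5 times the count or within the 95% interval of the value reported. The number of shared peaks ran from 1550 to 2101, and was 596 on the wider part (at or over the median width) of each list. The share on X stayed within 11.8 to 12.1%. A reciprocal overlap of 50% gave a median width of 2106 bp (2105.5), a median gap of 27.0 kb and 29.2% in clusters, and 48.04% of Su(Hw) peaks of S2 alone meeting a shared peak. The median gap was 24.1 kb between midpoints. Clusters held 17.9% with gaps up to 2 kb and 54.8% with gaps up to 10 kb. Su(Hw) of S2 was at 23.1% of shared peaks when counted within 1 kb and at 18.6% with the exosome midpoint inside the Su(Hw) peak, and Su(Hw) of S3 at 8.74% and 4.86%. Su(Hw) of S3 was also at 5.298% with 50% of the shorter peak and at 5.02% with its midpoint inside. The narrower and wider parts of the Su(Hw) peaks of S2 alone met shared peaks in 61.1 and 44.6%, and those of S3 alone in 6.57 and 1.28%. The cause was not tested. The exosome midpoint, the common stretch and the split of Su(Hw) peaks by line were chosen after seeing the data. No paired analysis was possible because the technical replicates are under 1 list per antibody and line and no result comes from a test. No replicate could be left out for the same reason, and the lists carry no score for a stricter threshold.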
